A study of Mus musculus with 12 samples.

Results

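Nes, Pax6, Pax3, Zic1, Neurog2, Neurod1, Tubb3 and Map2, genes of neural progenitors and neurons, were followed through differentiation of mouse embryonic stem cells (mESCs) with and without knockdown of the protease cathepsin L. They were taken from the RNA-seq count table by their symbols, 8 of its 24495 genes. All 8 passed the filter on low counts, which left 15532 genes to be tested. CCE-Nanog-GFP mESCs, sorted for GFP, were transduced with pLKO.1 lentivirus carrying a scramble shRNA (shSC, labelled scr and WT) or an shRNA against CTSL (shCTSL, labelled CTSL KD) and selected in puromycin. RNA was taken from undifferentiated mESCs (Day 0) and from embryoid bodies (EBs) grown under rotation without LIF and with all-trans retinoic acid (RA), at Day 2 and Day 4. Each of the 6 groups has 2 libraries, named biological replicates in the study's figure legends. The sources used here do not give which CTSL shRNA the sequenced line carried. With 2 libraries a group, p-values measure only the spread between these libraries, which may be technical. A bulk level cannot tell fewer cells of a type apart from less RNA per cell.

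In the developing nervous system dividing progenitors carry the intermediate filament nestin (Nes) and patterning factors such as Pax6, Pax3 and Zic1. Proneural basic helix-loop-helix factors, Neurog2 first and Neurod1 later, then drive exit from the cell cycle, and postmitotic neurons assemble microtubules that contain the beta-tubulin Tubb3 and the microtubule-associated protein Map2. RA posteriorises neural tissue and is widely used to steer mESCs toward neural as well as other fates. None of these genes is exclusive to neural cells: Pax3 also marks somites, and Neurod1 and Pax6 are used in endocrine pancreas.

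The 12 libraries hold 11171111 to 27155553 counted reads. Levels are CPM, the counts scaled to a fixed sum per library and corrected by TMM factors. Replicates differed by an SD of the log2 ratio of 0.178 to 0.269 in 5 groups and of 0.604 in shCTSL Day 2. Of these shCTSL Day 2 libraries replicate 1 stood apart also in how counts depend on exonic length. Its slope was −0.27 (log2 per doubling of length), against 0.07 in replicate 2 and −0.11 to 0.16 in the other groups. Rn45s, a ribosomal RNA gene, held 3.43% of the counts of replicate 1, against 0.17% to 1.43% in the other libraries. The members' values that rest on shCTSL Day 2 are followed by those without replicate 1 or replicate 2. Each then rests on 1 library assumed to vary like the other groups, and without replicate 2 that library is replicate 1. Ctsl, the targeted gene, was lower in both shCTSL libraries than in both shSC libraries on every day, by 73.0% at Day 0 and 51.9% at Day 2, which are called, and by 43.8% at Day 4 (adjusted p = 0.0896, edgeR). Of 8 pluripotency markers, 6 were called lower at Day 4 than at Day 0 in each line.

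Tubb3, Neurod1 and Neurog2, the 3 members that differed most between Day 0 and Day 4 in shSC, have in common that their promoters hold TATAA on the gene's strand between 40 and 20 bases before the start. Such a match occurs in 3.52% of the 32851 promoters of the RefSeq table. RefSeq promoters were found for 7 of the 8 members, all but Pax3, and Nes, Pax6, Zic1 and Map2 have no TATAA there. In shCTSL Pax3 differed more between these days (3.47 on the log2 scale) than Neurog2 (2.67), both from few counts at Day 0. Tubb3 and Neurod1 fell, whereas Neurog2 rose. The 250 bases before the annotated start are printed 5′ to 3′ on the gene's strand from RefSeq on GRCm38.p6, with the TATAA in capitals, for these 3 genes at chr8:123411303-123411552 (Tubb3, plus strand), chr2:79456637-79456886 (Neurod1, minus strand) and chr3:127632886-127633135 (Neurog2, plus strand). The upstream one of the Pax6 promoters, at chr2:105668646-105668895 on the plus strand, is shown for contrast. These sequences were picked after the values were seen, so that the share over all promoters is no test of enrichment.
Tubb3: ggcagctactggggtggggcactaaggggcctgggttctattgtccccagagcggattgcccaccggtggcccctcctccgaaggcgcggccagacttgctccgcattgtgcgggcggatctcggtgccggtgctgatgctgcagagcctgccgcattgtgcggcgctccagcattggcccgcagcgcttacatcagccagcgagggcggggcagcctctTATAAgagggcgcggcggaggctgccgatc
Neurod1: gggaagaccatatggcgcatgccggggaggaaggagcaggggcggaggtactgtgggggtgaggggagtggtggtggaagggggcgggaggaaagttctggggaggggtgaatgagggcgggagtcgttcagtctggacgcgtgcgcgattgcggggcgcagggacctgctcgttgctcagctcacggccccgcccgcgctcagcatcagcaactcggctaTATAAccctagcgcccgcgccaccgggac
Neurog2: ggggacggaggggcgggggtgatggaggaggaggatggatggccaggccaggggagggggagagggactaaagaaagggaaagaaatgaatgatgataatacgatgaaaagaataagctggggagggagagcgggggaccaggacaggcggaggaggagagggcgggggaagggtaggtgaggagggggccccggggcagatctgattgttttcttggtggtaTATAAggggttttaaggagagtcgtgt
Pax6: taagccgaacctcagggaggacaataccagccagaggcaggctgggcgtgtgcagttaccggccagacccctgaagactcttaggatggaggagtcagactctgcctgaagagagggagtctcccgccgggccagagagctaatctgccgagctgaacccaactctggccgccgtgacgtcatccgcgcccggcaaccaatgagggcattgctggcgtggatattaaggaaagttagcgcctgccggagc
Searched on both strands of the same window, the E-box letters CAGCTG (in 13.0% of all promoters) and CAGATG (14.4%), which proneural factors are known to bind, were in none of the members' promoters. The letters AGGTCA, a half-site of nuclear receptors (14.0%), were not there either. GGGCGG, the core of a GC box (32.7%), was in 6 of the 7 genes, all but Pax6. These letters describe the windows printed and not binding.

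Nes (chr3:87775000-87784373 of mm9, plus strand) was abundant throughout and moved little. In shSC its libraries stood at 42.0 and 42.3 CPM at Day 0, 37.2 and 37.6 at Day 2, and 60.5 and 53.5 at Day 4. In shCTSL they stood at 35.4 and 42.2, 46.2 and 38.3, and 58.4 and 62.0. Both lines were thus highest at Day 4, where no library overlapped with those of the earlier days. The step from Day 2 to Day 4 in shSC had a log2 fold change of 0.61 (SE 0.13) and is called (adjusted p = 0.0059, edgeR quasi-likelihood test here and below). That in shCTSL, of 0.51 (SE 0.13), is under 1.5-fold and not called (adjusted p = 0.0144). A gene is called at an adjusted p under 0.05 and a change of at least 1.5-fold. From Day 0 to Day 4 shSC gave 0.44, under 1.5-fold (adjusted p = 0.0128), and shCTSL gave 0.63, a call (adjusted p = 0.00165). Both calls lie at the fold cutoff and were lost with offsets for exonic length, at 0.54 and 0.49. The shSC call was also lost without shSC Day 0 replicate 2 (0.58), shSC Day 2 replicate 1 (0.59) or shSC Day 4 replicate 1 (0.51). The one in shCTSL was lost when its Day 0 replicate 1 was left out (0.51). The shCTSL step from Day 2 to Day 4 was a call without Day 2 replicate 1 (0.63) and stood at 0.38 without replicate 2.

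Pax6, a homeodomain factor of forebrain, eye and ventral spinal cord progenitors (chr2:105509053-105543317, plus strand), peaked at Day 2. The shSC libraries had 11.1 and 10.9 CPM at Day 0, 68.1 and 66.7 at Day 2, and 30.2 and 42.2 at Day 4. The shCTSL libraries had 9.996 and 10.5, then 96.6 and 80.1, then 24.1 and 31.4. The days did not overlap within either line. By Day 2 Pax6 had risen 6.12-fold in the control line, which is 2.61 on the log2 scale (SE 0.19, adjusted p = 1.65e-06). The knockdown line rose 8.61-fold, or 3.11 (SE 0.20, adjusted p = 6.75e-07). By Day 4 it had fallen again, with a loss of 46.4% for the control (−0.90, adjusted p = 0.00366) against 68.5% for the knockdown (−1.67, adjusted p = 0.000117), and stayed 3.28-fold and 2.71-fold above Day 0. Without shCTSL Day 2 replicate 1 or 2 the knockdown values were 3.01 and 3.24 for the rise and −1.55 and −1.80 for the fall, all called. Exons of Elp4 on the other strand overlap Pax6 over 5542 bases. The library kit was directional, but the sources used here do not say whether the counting used strand.

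Pax3 (chr1:78097842-78193709, minus strand), a factor of dorsal neural tube, neural crest and somites, was close to absent from mESCs. It had 2 and 3 counts in the shSC libraries at Day 0, then 30 and 36, then 20 and 13. In shCTSL it had 2 and 1, then 18 and 39, then 28 and 31. In CPM this was 0.152 and 0.186, 0.996 and 1.58, and 0.884 and 0.902 in shSC, and 0.149 and 0.105, 1.11 and 1.66, and 1.52 and 1.52 in shCTSL. Every EB library lay above every Day 0 library. The increase to Day 2 in shSC was 7.16-fold (log2 fold change 2.84, SE 0.46, adjusted p = 0.000372) and that to Day 4 was 5.06-fold (2.34, SE 0.50, adjusted p = 0.00199). In shCTSL, with 3 counts at Day 0, the ratio was 10.9 at Day 2 (95% counting interval 3.56 to 54.7) and 11.6 at Day 4 (3.78 to 57.9), and both increases are called. The fitted log2 fold change to Day 2 of 3.37 was 3.64 without shCTSL Day 2 replicate 1 and 3.02 without replicate 2. These intervals cover counting error only.

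Zic1 (chr9:91252896-91260648, minus strand), a zinc finger factor of dorsal neural tissue, was also low and rose more gradually. Its shSC libraries had 0.457 and 0.496 CPM at Day 0, 0.929 and 0.919 at Day 2, and 0.840 and 1.53 at Day 4, from 6 to 28 counts each. The shCTSL libraries had 0.671 and 0.421, 0.923 and 1.32, and 1.30 and 1.97, from 4 to 40 counts each. The Day 4 libraries lay above the Day 0 libraries in each line, and overlapped with those of Day 2. The Day 4 increase over Day 0 is called in both lines, at a log2 fold change of 1.23 for shSC (SE 0.45, adjusted p = 0.0307) and 1.53 for shCTSL (SE 0.43, adjusted p = 0.0096). With shSC the call was lost in DESeq2 (adjusted p = 0.0525), with offsets for exonic length (adjusted p = 0.0521) and without shSC Day 0 replicate 1 (adjusted p = 0.107), shSC Day 0 replicate 2 (adjusted p = 0.104) or shSC Day 4 replicate 2 (adjusted p = 0.173, value 0.80). The shCTSL step to Day 2 of 1.01 was not called (adjusted p = 0.0736), but was without shCTSL Day 2 replicate 1 (1.25, adjusted p = 0.0362), against 0.70 without replicate 2. Leaving out replicate 2 of shCTSL ended the other call, at an adjusted p of 0.0633 for the Day 0 and 0.0679 for the Day 4 library.

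The proneural factors went opposite ways. Neurog2, which starts neurogenesis in cortex, spinal cord and sensory ganglia (chr3:127336054-127338549, plus strand), had 1 and 1 counts in shSC at Day 0, 1 and 0 at Day 2, and 17 and 20 at Day 4. In shCTSL it had 2 and 0, then 0 and 0, then 9 and 14. Only the Day 4 libraries of both lines held more than 2 counts. In CPM the Day 4 libraries stood at 0.751 and 1.39 in shSC and at 0.487 and 0.689 in shCTSL. The ratio of Day 4 to Day 2 in shSC was 52.9 (95% counting interval 8.92 to 2145). In shCTSL Day 4 was at least 7.85-fold higher than Day 2, whose 0 counts were set to a floor of 3 over the group. Both increases are called (adjusted p = 0.00115 and 0.00456). Against Day 0 the ratio was 14.6 in shSC (3.77 to 125) and 6.79 in shCTSL (1.68 to 59.4), also called (adjusted p = 0.00191 and 0.0224). The shCTSL call against Day 0 was lost with DESeq2 (adjusted p = 0.0593) and when shCTSL replicate 2 of Day 0 (adjusted p = 0.101) or of Day 4 (adjusted p = 0.0887) was left out. That against Day 2 was lost with limma-voom (adjusted p = 0.254) and was a call without replicate 1 or replicate 2 of shCTSL Day 2.

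Neurod1, which acts after the neurogenins in neurons and in pancreatic endocrine cells (chr2:79292678-79296908, minus strand), was instead highest in mESCs. The shSC libraries had 7.62 and 6.51 CPM at Day 0 and the shCTSL libraries 6.27 and 8.85, from 84 to 105 counts each. At Day 2 they had 0.365 and 0.394 in shSC and 0.369 and 0.0851 in shCTSL, and at Day 4 0.619 and 0.555 in shSC and 0.487 and 0.246 in shCTSL. No EB library held more than 14 counts. By Day 2 the control line had dropped 18.3-fold, which is −4.20 on the log2 scale (SE 0.36, adjusted p = 4.76e-06), and the knockdown line 35.6-fold, or −5.15 (SE 0.43, adjusted p = 3.53e-06). The knockdown value rests on 6 and 2 counts at Day 2, and was −6.30 without replicate 1 and −4.30 without replicate 2, both called. The drop was 11.8-fold and 20.3-fold by Day 4 (−3.56 and −4.35, adjusted p = 1.05e-05 and 4.52e-06). Between Day 2 and Day 4 the values of 0.64 in shSC and 0.81 in shCTSL were not called (adjusted p = 0.374 and 0.381), the latter being 1.98 without shCTSL Day 2 replicate 1 and −0.034 without replicate 2. Exons of Cerkl on the same strand overlap Neurod1 over 201 bases. The summed level of 7 endocrine pancreas markers rose, from 2.001 to 3.28 CPM over the Day 0 libraries to 52.8 to 75.8 at Day 4. Nearly all of the Day 4 level was Sst, the gene of somatostatin (65.7 CPM in shSC and 52.7 in shCTSL on average). Of the 3 markers tested at Day 4 against Day 0, Sst was called higher, 1 was called lower and 1 was not called in each line.

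Tubb3 (chr8:125935324-125945915, plus strand) was the most abundant member in mESCs and fell steeply on differentiation. The shSC libraries had 163 and 176 CPM at Day 0, 13.05 and 12.04 at Day 2, and 9.24 and 12.97 at Day 4. The shCTSL libraries had 146 and 149, 19.2 and 13.7, and 10.01 and 10.8. Every EB library lay far below every mESC library. At Day 2 Tubb3 was 13.5-fold below Day 0 in the control line, which is −3.76 on the log2 scale (SE 0.19, adjusted p = 1.71e-07), and 9.002-fold below it in the knockdown line, or −3.17 (SE 0.19, adjusted p = 4.36e-07), which was −3.38 without shCTSL Day 2 replicate 1 and −2.94 without replicate 2. By Day 4 it was 15.4-fold and 14.2-fold lower (−3.94 and −3.83, adjusted p = 8.11e-08 and 1.05e-07). A further decrease from Day 2 to Day 4 was called in shCTSL only (−0.66, SE 0.19, adjusted p = 0.0244), against −0.19 in shSC (SE 0.19, adjusted p = 0.496). It was lost when shCTSL Day 2 replicate 1 (−0.43), or replicate 1 (adjusted p = 0.14) or replicate 2 (adjusted p = 0.0815) of shCTSL Day 4 was left out, with only the libraries compared (adjusted p = 0.183), with limma-voom (adjusted p = 0.318) and with offsets for exonic length (−0.51). The difference between the lines in this step was not tested. Tubb3 belongs to a family of similar tubulin genes, and reads of mapping quality under 10 had been removed before counting.

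Map2 (chr1:66221847-66489157, plus strand) was not called between days in either line in the main edgeR model. Its shSC libraries had 17.5 and 18.2 CPM at Day 0, 14.1 and 14.9 at Day 2, and 14.2 and 17.0 at Day 4. The shCTSL libraries had 14.8 and 15.1, 6.89 and 14.3, and 9.91 and 9.59. Of the shCTSL Day 2 libraries, replicate 1 was the lowest of all 12 and replicate 2 lay within the range of shSC. The shCTSL step from Day 0 to Day 2 of −0.48 (adjusted p = 0.14) was −0.02 without replicate 1 and −1.11, a call, without replicate 2 (adjusted p = 1.68e-05). The next step of −0.14 was −0.58 and 0.50, neither called. Day 4 differed from Day 0 by −0.19 on the log2 scale in the control line (SE 0.26, adjusted p = 0.523) and by −0.62 in the knockdown line (SE 0.27, adjusted p = 0.064). The latter passed the threshold when shCTSL Day 2 replicate 1 (−0.60, adjusted p = 0.000457), replicate 2 (−0.62, adjusted p = 0.000323) or both (−0.60, adjusted p = 0.000471) were left out, with limma-voom (adjusted p = 0.00117), with all genes kept whatever their counts (adjusted p = 0.0322) and with offsets for exonic length (−0.87, adjusted p = 0.000684).

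**Figure D1:**
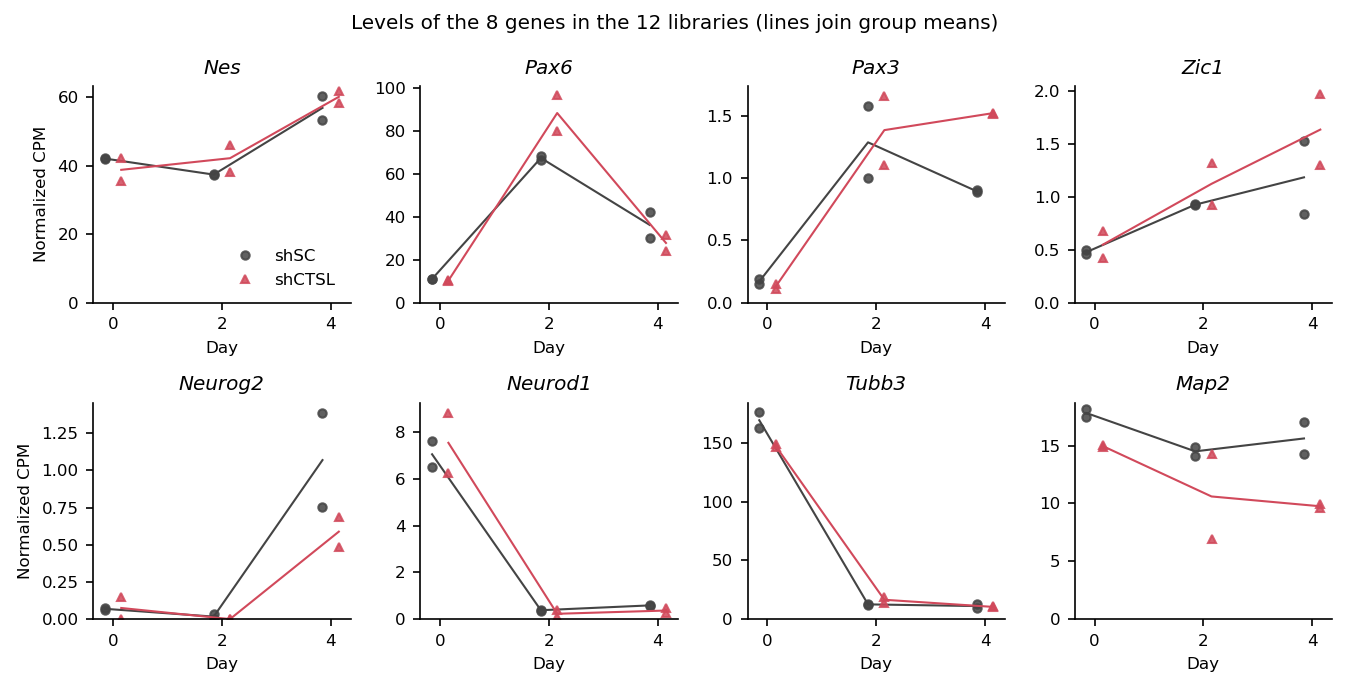
Normalized CPM (y axis, linear, from 0) of the 8 genes by day (x axis), 1 point for each of the 12 libraries (circles shSC, triangles shCTSL), with lines through the means of 2 libraries. Pax6 peaks at Day 2, Tubb3 and Neurod1 drop after Day 0, Neurog2 appears at Day 4, and at Day 4 the shCTSL points of Map2 lie below the shSC points.

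Over the members together, 4 of 8 were called between Day 2 and Day 0 in shSC, where 54.6% of all genes tested were called. The 2 higher members stand beside 29.3% of all genes and the 2 lower ones beside 25.3%. In shCTSL it was also 4 of 8 (55.5% of all genes), 2 higher (30.9%) and 2 lower (24.6%). At Day 4 against Day 0 it was 6 in shSC (60.7%), 4 higher (32.1%) and 2 lower (28.7%), and 7 in shCTSL (59.9%), 5 higher (32.3%) and 2 lower (27.6%). Between Day 2 and Day 4 it was 3 in shSC (23.8%), 2 higher (11.4%) and 1 lower (12.4%), and 3 in shCTSL (23.4%), 1 higher (11%) and 2 lower (12.4%). A call between days was thus common among all genes. The median log2 fold change of the 8 at Day 4 against Day 0 was 0.84 in shSC and 1.04 in shCTSL, against 0.03 and 0.06 over all genes. Neurog2, Pax3 and Zic1, with few counts at Day 0, passed the filter through later groups. The members' counts of higher calls and these medians are thus in part set by the filter.

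**Figure D2:**
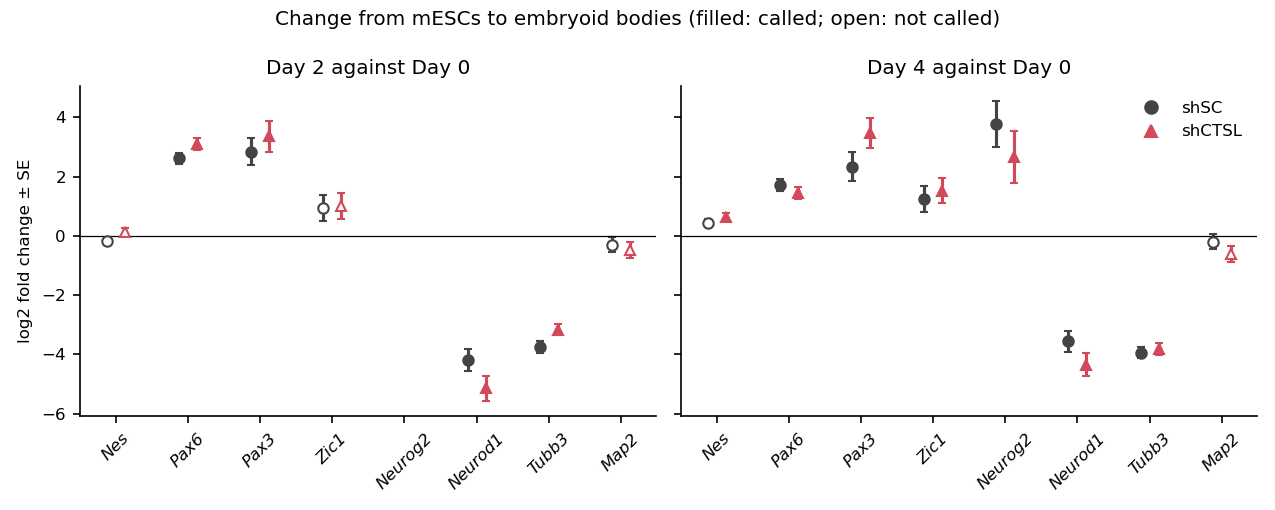
Log2 fold change (y axis, ± SE of the fit) of each member at Day 2 and Day 4 against Day 0 in shSC (circles) and shCTSL (triangles), filled where called. Neurog2 is left out at Day 2, where the groups hold 0 and 1 counts, and its Day 4 values and those of Pax3 rest on 2 to 5 counts at Day 0. Pax6, Pax3, Zic1 and Neurog2 lie above 0 at Day 4, and Neurod1 and Tubb3 below −3 in both panels.

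Levels can be compared between genes only per length, here as CPM per kb of the longest coding transcript and, where the order turns, per kb of the union of annotated exons. In shSC mESCs the order of the means per kb of transcript was Tubb3 (90.8), Nes (6.88), Map2 (2.85), Neurod1 (2.59), Pax6 (1.31), Zic1 (0.0850), Pax3 (0.0438) and Neurog2 (0.0310). The libraries of Map2 and Neurod1 overlapped, and Pax3 and Neurog2 rest on 5 and 2 counts. Per kb of exon union Map2 (1.08) came after Neurod1 (2.59), and Neurog2 (0.0310) before Pax3 (0.0273). By both lengths Tubb3, the gene of a neuronal tubulin, was above every other member in undifferentiated cells. At Day 2 in shSC the levels per kb of transcript were 8.02 for Pax6, 6.71 for Tubb3, 6.11 for Nes and 2.32 for Map2, while per kb of exon union Pax6 (3.399) came after Tubb3 (6.71) and Nes (5.84), so that its place depends on the length used. At Day 4 Nes came first by both lengths (9.30 and 8.88), before Tubb3 (5.94 by both). Pax6 (4.31 and 1.83) and Map2 (2.49 and 0.949) followed, and the libraries of Tubb3 and Pax6 overlapped per kb of transcript but not per kb of exon union. Neurog2 (0.480), Pax3 (0.231 and 0.144), Neurod1 (0.215) and Zic1 (0.211 and 0.208) were lowest. In shCTSL at Day 4 Nes (9.83 and 9.38) also came first, with Tubb3 at 5.56, Pax6 at 3.31 and 1.40, and Map2 at 1.56 and 0.593.

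Other genes of the neural programme were counted in 3 lists. Of 30 neural progenitor factors 22 passed the filter, and at Day 4 against Day 0 13 were called higher and 5 lower in shSC, where 32.1% of all genes were called higher and 28.7% lower. In shCTSL it was 14 higher and 5 lower, with 32.3% and 27.6% of all genes. The median log2 fold change was 1.72 and 1.57. The summed level of the 30 genes was nevertheless lower at Day 4. It went from 556 to 586 CPM over the Day 0 libraries to 388 to 424 in shSC, and from 544 to 551 to 318 to 332 in shCTSL. Of the 22, 3 in shSC and 4 in shCTSL had at most 4 counts at Day 0, so that they passed the filter through later groups, and the counts and medians are in part set by the filter. The largest increases in shSC were those of Nr2f1, an RA-responsive orphan nuclear receptor (9.42, SE 0.43, adjusted p = 5.14e-08), the homeobox gene Irx3 (6.54, SE 0.39) and Pax2, a factor of the midbrain-hindbrain boundary and of kidney (6.19, SE 0.62). In shCTSL Nr2f1 had 3 counts at Day 0 and a ratio of 672 (95% counting interval 230 to 3259), while Irx3 changed by 5.81 and Pax2 by 4.76. Among the genes called lower in shSC were Pax8 (−3.49, SE 0.42) and the midbrain-hindbrain gene En2 (−3.08, SE 0.27), with −3.63 and −2.59 in shCTSL.

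Of 22 proneural and early neuronal regulators 17 passed the filter, and 12 were called higher and 2 lower at Day 4 in each line, with the same shares of all genes as before. Of the 17, 5 in shSC and 6 in shCTSL had at most 4 counts at Day 0, and the same limit holds for them. Their median log2 fold change was 2.14 in shSC and 2.16 in shCTSL. The summed level of the 22 genes went from 30.7 to 32.3 CPM at Day 0 to 143.1 to 154 at Day 4 in shSC. In shCTSL it went from 28.9 to 33.4 to 142.03 to 142.6. The LIM homeobox gene Lhx1 rose in shSC by 5.51 (SE 0.62) and in shCTSL, from 0 counts set to the floor of 3, at least 34.0-fold. Nhlh1, a helix-loop-helix gene of newborn neurons, had 1 count at Day 0 in shSC and 59 at Day 4, a ratio of 46.6 (8.04 to 1871), and 2 and 68 in shCTSL, a ratio of 20.1 (5.35 to 169). The only genes called lower were Neurog3, an endocrine and neural proneural factor (−2.84 in shSC and −3.90 in shCTSL), and the Notch ligand Dll3 (−1.14 and −1.20). Between Day 0 and Day 2 4 of 17 were called higher and 1 lower in shSC, and 5 higher and 1 lower in shCTSL, where 29.3% and 30.9% of all genes were called higher. Between Day 2 and Day 4 it was 10 higher and 3 lower in shSC and 7 higher and 3 lower in shCTSL, where 11.4% and 11% of all genes were called higher and 12.4% lower in each. Lhx1 was highest at Day 2, at 33.2 and 31.5 CPM in shSC and 24.3 and 34.2 in shCTSL.

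Genes of the neuronal cytoskeleton, of neuronal RNA binding and of synapses were more often called lower than higher. Of 22 such genes 21 passed the filter, and at Day 4 against Day 0 5 were called higher and 13 lower in shSC (32.1% and 28.7% of all genes) and 5 higher and 14 lower in shCTSL (32.3% and 27.6%). Only Dcx among them had at most 4 counts at Day 0. The median log2 fold change was −1.32 and −1.07. The summed level of the 22 genes went from 1075 to 1092 CPM at Day 0 to 541 to 553 at Day 4 in shSC. In shCTSL it went from 867 to 873 to 522 to 536. Stmn2, a growth cone protein, fell from 122 and 132 CPM to 3.49 and 2.50 in shSC (−5.38, SE 0.34, adjusted p = 3.87e-07) and from 87.4 and 82.9 to 4.01 and 4.82 in shCTSL (−4.27, SE 0.32). The neurofilament gene Nefh fell from 87.1 and 83.4 to 3.18 and 3.68 in shSC (−4.64) and from 107 and 118 to 5.63 and 5.12 in shCTSL (−4.39). The filament gene Ina changed by −4.32 and −3.93. Tubb3 thus fell together with other genes of neuronal filaments and microtubules. Among those called higher were Dcx, of migrating neurons, with 1 count at Day 0 in each line and a ratio of 107 in shSC (18.95 to 4273) and 62.0 in shCTSL (10.9 to 2470), the RNA-binding gene Celf3 (3.94 and 2.90) and the adhesion gene Ncam1 (1.24 and 1.32).

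**Figure D3:**
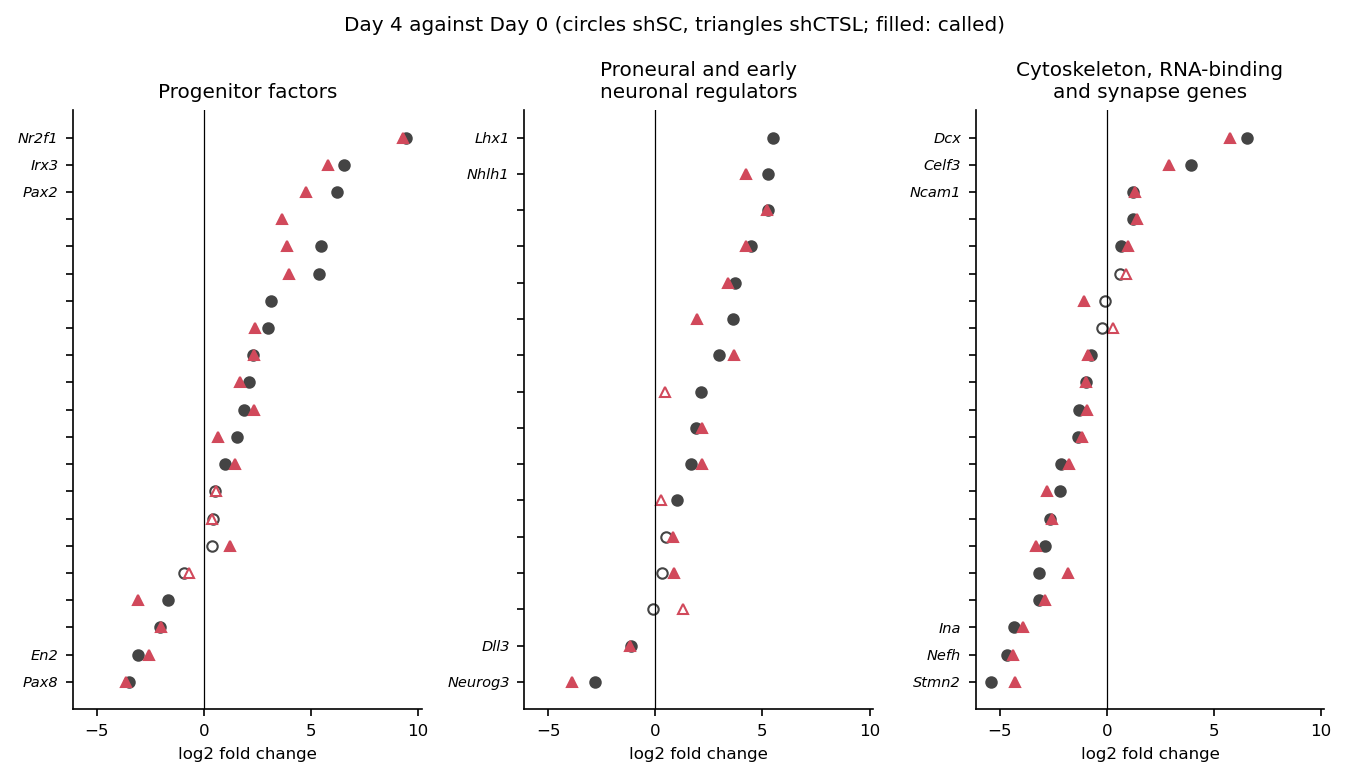
Log2 fold change at Day 4 against Day 0 (x axis) for genes of the 3 neural lists that passed the filter, 1 line of points a gene with those named in the text labelled, in shSC (circles) and shCTSL (triangles), filled where called. Points with 0 counts in a group are left out (1 gene in shSC and 2 in shCTSL), as are genes not reported here. Proneural regulators lie mostly to the right of 0 and the cytoskeletal list mostly to the left, with medians of 2.14 and −1.32 in shSC over all genes of each list that passed the filter.

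Lists of other cell types moved over the same days. All 8 endoderm markers were called higher at Day 4 in both lines, with a summed level of 12.8 to 16.5 CPM over the Day 0 libraries and 528 to 607 over those of Day 4. Of 11 neural crest markers tested 7 were called higher and 1 lower in each line, with summed levels of 107 to 131 CPM at Day 0 and 335 to 393 at Day 4. Of the listed crest markers, Sox10 was at 6 counts in shSC and 22 in shCTSL at Day 4. Tfap2b went from 3 counts at Day 0 to 25 at Day 4 in shSC and from 3 to 8 in shCTSL. Twist1, shared with mesoderm, rose to 37.7 and 52.6 CPM in shSC and 43.6 and 44.2 in shCTSL. Which cells held these transcripts was not tested. Of 6 paraxial mesoderm and muscle markers tested 4 were called higher and 1 lower in each line, with 110 to 143 CPM summed at Day 0 and 203 to 272 at Day 4. Of 6 glial markers tested 2 were called higher and 2 lower in each line, with 31.2 to 39.4 CPM summed at Day 0 and 89.6 to 176 at Day 4. Of 7 lateral mesoderm and endothelial markers tested 6 were called higher and 1 lower, with 73.4 to 99.9 and 243 to 304 CPM. Of 3 endocrine pancreas markers tested 1 was called in each direction. Of all genes 32.1% were called higher and 28.7% lower in shSC, and 32.3% and 27.6% in shCTSL, and the glial and endocrine counts lie near these shares. At most 4 counts at Day 0 were held in each line by 3 of the endoderm and 2 of the paraxial mesoderm and muscle markers tested. The same was true of 1 lateral mesoderm and endothelial and 1 endocrine marker. These passed the filter through later groups, which in part sets the counts of calls. The part of such cells in the levels of Pax3, Zic1, Pax6 and Neurod1 was not tested.

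Over the 12 libraries the log2 CPM of Tubb3 and Neurod1 ran in parallel (Pearson r = 0.968), and Pax3 ran opposite to Neurod1 (r = −0.974). Pax6 had r = 0.841 with Pax3 and −0.0198 with Neurog2, and Neurog2 had r = 0.803 with Nes. The points share days and libraries, and the values are descriptions. Among the genes most like each member by this measure were Rnf41 (0.968), Cd248 and Gng8 for Nes, Sfrp2, a secreted Wnt modulator (0.990), Klhdc8a and Por for Pax6, and Efcc1 (0.981), Marveld1 and Gcnt4 for Pax3. For Zic1 they were Leng9 (0.947), Ankrd53 and Sfxn3, for Neurog2 Dpp10 (0.971) and Fabp4, and for Neurod1 Mtrf1 (0.996), Nol8 and Mettl16. For Tubb3 they were Cars (0.998), Ybx3 and Mars, and for Map2 Srsf4 (0.964) and Ttll5.

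Whether knockdown of CTSL changed these genes was tested on each day. At Day 0 0 of 8 members were called by edgeR, where 0.0386% of all genes were, and 0 had an unadjusted p under 0.05 (7.26% of all genes). DESeq2 and limma-voom called 0. The log2 differences, shCTSL against shSC, were −0.12 for Nes (95% interval −0.42 to 0.18), −0.10 for Pax6 (−0.55 to 0.35), −0.20 for Tubb3 (−0.58 to 0.18), −0.25 for Map2 (−0.84 to 0.34) and 0.09 for Neurod1 (−0.53 to 0.70). For Pax3, with 3 counts against 5, the ratio of 0.767 had a counting interval of 0.119 to 3.94. Zic1 differed by 0.24 (−0.99 to 1.46), and Neurog2 had 2 counts in each line. The libraries of the lines did not overlap for 4 of 8 members, as for 51.3% of all genes.

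At Day 2 0 of 8 members were called by edgeR (0.0644% of all genes, 0.00644% higher and 0.0579% lower), 0 by DESeq2 and 0 by limma-voom, and 1 had an unadjusted p under 0.05 (19.4% of all genes). That gene was Pax6, at 96.6 and 80.1 CPM in shCTSL and 68.1 and 66.7 in shSC. Its log2 difference of 0.39 (95% interval 0.00 to 0.78, adjusted p = 0.255) was 0.26 without shCTSL Day 2 replicate 1 (adjusted p = 0.411), 0.52 without replicate 2, which is under 1.5-fold (adjusted p = 0.00671), and 0.90 with offsets for exonic length (adjusted p = 0.156). Tubb3 differed by 0.39 (−0.02 to 0.79, adjusted p = 0.267), with 19.2 and 13.7 CPM against 13.05 and 12.04. Map2 differed by −0.43 (−1.01 to 0.14, adjusted p = 0.338), with 6.89 and 14.3 CPM in shCTSL against 14.1 and 14.9. Without shCTSL Day 2 replicate 2, which leaves 1 library assumed to vary like the other groups, Tubb3 differed by 0.61 and Map2 by −1.07. Without replicate 1 Tubb3 was at 0.14 and Map2 at −0.0095. Over all genes the count of 10 called by edgeR moved by more than 1.5 times, or to 0, in 19 of the 22 alternatives. The share of all genes given above thus holds for the main model only. The remaining differences were 0.17 for Nes, 0.16 for Pax3, 0.30 for Zic1 and −0.87 for Neurod1, with adjusted p from 0.401 to 0.75. Without shCTSL Day 2 replicate 1 they were 0.040, 0.41, 0.52 and −2.06, and without replicate 2 0.30, −0.19, −0.0065 and −0.036, none of them called. Neurog2 had 0 counts in shCTSL and 1 in shSC. The libraries of the lines did not overlap for 3 of 8 members, as for 45.5% of all genes.

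At Day 4 0 of 8 members were called by edgeR (0.0129% of all genes) and 0 by DESeq2, limma-voom called 1, and 2, Map2 and Pax3, had an unadjusted p under 0.05 (12.2% of all genes). Map2 stood at 9.91 and 9.59 CPM in shCTSL, below the 14.2 and 17.0 of shSC. Its log2 difference of −0.67 (SE 0.26, 95% interval −1.26 to −0.09, adjusted p = 0.37), or 37.4% less transcript, was not called in the main edgeR model. It was called without shCTSL Day 2 replicate 1 (−0.66, SE 0.12, adjusted p = 0.00174), replicate 2 (−0.67, adjusted p = 0.0016) or both (−0.66, adjusted p = 0.00195), with only the Day 4 libraries (−0.65, adjusted p = 0.0163) and with limma-voom and library weights (−0.65, adjusted p = 0.0104). These settings moved the error rather than the value. With offsets for exonic length it was −0.36 (SE 0.16, adjusted p = 0.331). Counts rose more with length in the shSC Day 4 libraries (slopes of 0.16 and 0.14) than in those of shCTSL (0.06 and −0.01), and the exons of Map2 cover 16447 bases, against 6258 in its longest coding transcript. The part of this trend in the Map2 difference was not tested further. The range of adjusted p over all alternatives was 0.0016 to 0.956, and the value was below 0 in each. The summed levels of the 3 neural lists did not overlap between the lines that day either and were lower in shCTSL, at 318 to 332 CPM against 388 to 424 for progenitor factors, 142.03 to 142.6 against 143.1 to 154 for proneural regulators, and 522 to 536 against 541 to 553 for cytoskeletal and synaptic genes. Nor did those of glial genes (89.6 to 99.6 CPM in shCTSL and 133 to 176 in shSC), lateral mesoderm and endothelium (243 to 289 and 300.2 to 304), endocrine pancreas (52.8 to 54.6 and 58.1 to 75.8) and endoderm (556 to 607 and 528 to 532). Such a lack of overlap was common, as the libraries of the lines did not overlap that day for 61.5% of all genes. The part of these list levels in the Map2 difference was not tested.

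Pax3 went the other way at Day 4, at 1.52 and 1.52 CPM in shCTSL against 0.884 and 0.902 in shSC. The log2 difference was 0.77 (SE 0.32, 95% interval 0.06 to 1.47, adjusted p = 0.387), from 28 and 31 counts against 20 and 13. It was not called under any alternative, with adjusted p from 0.0872 to 0.956. The summed levels of neural crest markers (335 to 393 CPM in shCTSL and 364 to 386 in shSC) and of paraxial mesoderm and muscle markers (217 to 218 and 203 to 272) overlapped between the lines that day. Neurog2 had 9 and 14 counts in shCTSL and 17 and 20 in shSC, a log2 difference of −0.78 (−1.85 to 0.28, adjusted p = 0.487). Neurod1 differed by −0.70 (−1.88 to 0.48), Pax6 by −0.38 (−0.77 to 0.02), Zic1 by 0.53 (−0.24 to 1.30), Nes by 0.08 (−0.21 to 0.37) and Tubb3 by −0.08 (−0.51 to 0.34), with adjusted p from 0.427 to 0.837. The intervals leave room for a 1.5-fold difference, 0.58 on the log2 scale, in every member but Nes and Tubb3. The libraries of the lines did not overlap for 4 of 8 members, as for 61.5% of all genes. None of the genes of the neural lists was called between the lines on any day.

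**Figure D4:**
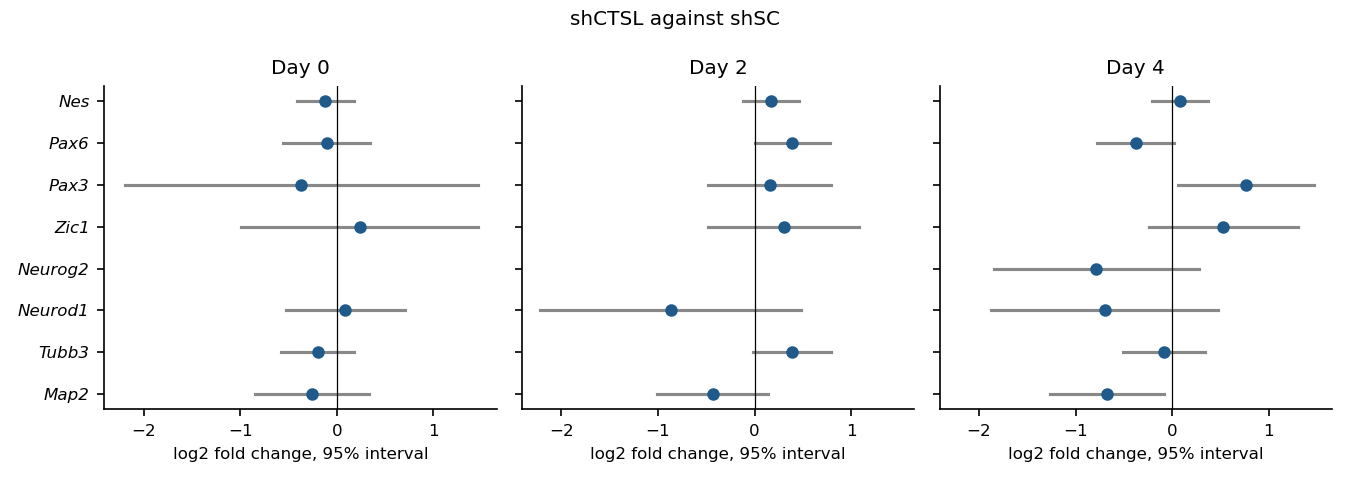
Log2 fold change of shCTSL against shSC (x axis) with its 95% interval for each member at Day 0, 2 and 4. Neurog2 is left out at Day 0 and Day 2, where the groups hold 0 to 2 counts. Most intervals cross 0, and at Day 4 that of Map2 lies below 0 and that of Pax3 above 0 before adjustment for the number of genes tested.

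**Figure D5:**
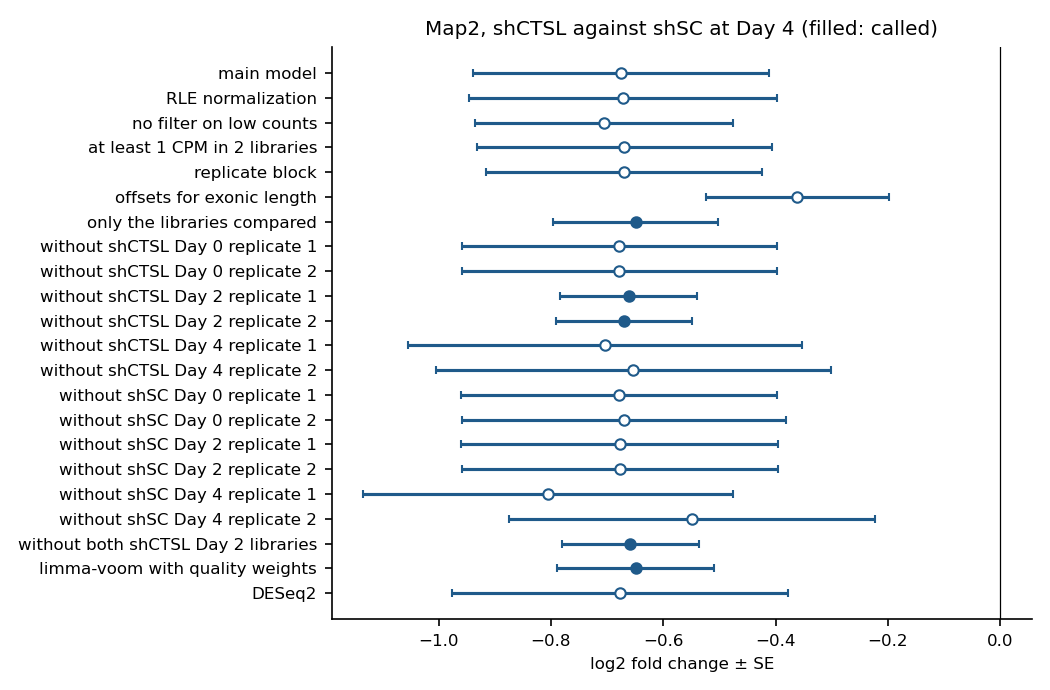
Log2 fold change (x axis, ± SE) of Map2 in shCTSL against shSC at Day 4 in the main model and in the alternatives that refit the counts, filled where called. All values lie between −0.80 and −0.36, and the error is smaller without the shCTSL Day 2 libraries.

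The change over the days was also compared between the lines. For Day 2 against Day 0, 0 of 8 members differed by edgeR, DESeq2 or limma-voom, as for 0% of all genes by edgeR, and 1, Tubb3, had an unadjusted p under 0.05 (11% of all genes). Its decrease was smaller in shCTSL by 0.59 on the log2 scale (SE 0.25, 95% interval 0.03 to 1.14, adjusted p = 0.44). This was 0.33 without shCTSL Day 2 replicate 1 and 0.81 without replicate 2. For Pax6 the difference was 0.49 (−0.10 to 1.09), with 0.35 and 0.62 without replicate 1 and replicate 2, neither called. For Map2 it was −0.18 (−1.01 to 0.64), with 0.23 without replicate 1 and −0.82 without replicate 2. For Day 4 against Day 0, 0 of 8 differed by the same tools (0.00644% of all genes by edgeR), and 0 had an unadjusted p under 0.05 (6.71% of all genes). The values ran from −0.79 for Neurod1 to 1.13 for Pax3 over the 7 members other than Neurog2, and each 95% interval included 0.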

How the data were processed

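RNA-seq was made from poly(A) RNA of 12 mouse ESC and EB libraries. The authors used STAR 2.3.0e for alignment to mm9, SAMtools 0.1.19 to drop reads on other contigs and those with a mapping quality below 10, and featureCounts 1.6.2 to assign reads to RefSeq genes. The deposited values are raw counts for 24495 genes, 1 column for each library and 0 other columns. Depth limits the precision of Neurog2, Pax3 and Zic1 most.

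The tests used edgeR 4.0.16 under R 4.3.3: filterByExpr with a minimum count of 10 (15532 genes), TMM, and a quasi-likelihood fit of all 12 libraries with a mean per group. p-values were adjusted over all genes by the Benjamini-Hochberg method. Groups come from the labels. Counting intervals are exact 95% intervals of a ratio of Poisson rates of the summed counts. Log2 CPM for correlations had 0.5 added. Positions and exonic lengths are from GENCODE M1 on mm9, and promoters from RefSeq on GRCm38.p6. Figures were drawn in Python 3.11.15 with matplotlib 3.10.9.

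The members and lists were chosen with earlier results of these data known. Named are the 8 members, the 3 highest and 3 lowest called genes of each neural list at Day 4 against Day 0 in shSC, the 3 genes most correlated with each member, Ctsl and up to 4 markers of other cell types. These markers are Sst, Sox10, Tfap2b and Twist1. Some genes that this rule names are not reported here. Alternatives were RLE normalization, DESeq2 1.42.0, limma-voom (limma 3.58.1) with quality weights, no filter, at least 1 CPM in 2 libraries, a fit of the compared groups alone, a cutoff on the log2 fold change of 1.5 or none, a replicate block, offsets for exonic length, and each library left out. Leaving out both shCTSL Day 2 libraries was added after seeing the data. The fit was tested on simulated data.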

Additional observations from a re-analysis of the deposited data

How the results depend on the processing

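The 8 members' calls between days of a line kept their number within 1.5 times under most alternatives. Exceptions were Day 4 against Day 2, with 1 call in place of 3 in shSC at a log2 fold change of at least 1.5, and 1 in place of 3 in shCTSL with only the libraries compared or with limma-voom. Between the lines at Day 4 the count of 0 became 1, Map2, with only the libraries compared, limma-voom, or without both shCTSL Day 2 libraries. Over all genes the count that day moved by more than 1.5 times, or to 0, in 18 of the 23 alternatives. With 1 library left out, the counts between the lines at Day 2 and Day 4 moved among the members and among all genes. So did those of the line difference in Day 2 against Day 0. The cause was not tested. Few reads limit Neurog2, Pax3, Zic1 and, in EBs, Neurod1.

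Small values changed sign under single settings. Offsets for exonic length gave −0.10 for Map2 in shSC at Day 4 against Day 2, 0.10 for Pax6 between the lines at Day 0 and −0.0042 for the line difference of Tubb3 at Day 4 against Day 0. Limma-voom gave −0.066 for Neurog2 between the lines at Day 0. With 1 library left out, the changes between days ranged from −0.027 to 0.23 (Map2), −0.44 to 0.046 (Tubb3) and −0.14 to 0.72 (Zic1) for shSC Day 4 against Day 2, from −0.15 to 0.45 (Pax3), −0.58 to 0.50 (Map2) and −0.034 to 1.98 (Neurod1) for shCTSL Day 4 against Day 2, and from −0.00027 to 0.26 (Nes) for shCTSL Day 2 against Day 0. Between the lines they ranged at Day 0 from −3.50 to 1.05 (Neurog2), −0.18 to 0.48 (Zic1) and −0.17 to 0.32 (Neurod1), at Day 2 from −0.19 to 0.49 (Pax3) and −0.0065 to 0.52 (Zic1), and at Day 4 from −0.0094 to 0.17 (Nes) and −0.32 to 0.17 (Tubb3). For line differences they ranged at Day 2 against Day 0 from −3.02 to 1.56 (Neurog2), −0.24 to 0.49 (Zic1) and −0.82 to 0.23 (Map2), and at Day 4 against Day 0 from −1.85 to 2.71 (Neurog2), −0.13 to 0.73 (Zic1) and −0.12 to 0.37 (Tubb3).

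The sources used here do not say whether same-numbered libraries of different groups were made together. Their deviations from the group means correlated at −0.465 to 0.257, and both of these ends involve the shCTSL Day 2 libraries. A replicate block changed no count of calls among the members (4, 3 and 6 in shSC, 4, 3 and 7 in shCTSL, and 0 between the lines), and turned the line difference of Zic1 at Day 2 against Day 0 to −0.027.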
